A study of Mus musculus with 6 samples.

Results

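The genes described here encode the IκB proteins and other regulators that NF-κB induces and that act back on it, compared between control and Cbfb knockout group 2 innate lymphoid cells (ILC2s). They were chosen by symbol, through the Entrez number of each row, and all 10 of the 10 listed genes had a row among the 25206 rows of the expression table. No filter on low values was applied. NF-κB dimers are held inactive by the classical IκB proteins, which the IκB kinase (IKK) complex marks for destruction when a receptor such as that for IL-33 is engaged. NF-κB then switches on the genes of its own inhibitors, so that the signal is damped, and the atypical IκB proteins act in the nucleus as partners of NF-κB on DNA. In ILC2s this pathway carries the IL-33 signal toward cytokine production.

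Expression was measured on single-colour arrays in ILC2 lines from C57BL/6J mice, kept in medium with 10 ng/ml of both IL-2 and IL-33. Lentiviral CRISPR constructs that also encode GFP carried a guide RNA against Cbfb (knockout, 3 arrays) or a guide without a target (control, 3 arrays), and cells with GFP were collected by sorting on day 6 of transduction. Both groups therefore received virus, the sort and the same cytokines, and no group without IL-33 is among the 6 arrays. Whether the 3 samples per group are separate cultures, and how many mice gave rise to the lines, is not in the labels. The p-values therefore rest on sample-to-sample spread alone, which could be technical.

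Cbfb, which encodes the partner subunit of the RUNX transcription factors, fell from 8.65 ± 0.11 to 7.83 ± 0.12 on the log2 scale (SD, n = 3 arrays per group, as in all values below; limma adjusted p = 0.00205). Of 11 ILC2 markers 9 had a row, and Gata3, Klrg1, Il7r, Il2ra, Icos, Il5 and Il13 had group means of 8.20 to 12.25, while Thy1 read 3.41 in both groups, under 3.6, the median of all group means. Of the 9 markers, 4 (44.4%) passed the limma test, 1 higher and 3 lower in the knockout, against 9.75% of all rows. Rora rose by 2.22 on the log2 scale from a low control value of 3.32 (adjusted p = 0.000562), Icos changed by -0.78 (adjusted p = 0.00121) and Il7r by -0.56 (adjusted p = 0.00966). Il5 changed by -0.33 (adjusted p = 0.0349), which missed the threshold when any 1 array was left out (adjusted p 0.0701 to 0.116). Of 22 markers of B cells, macrophages, mast cells and neutrophils, 0 passed the limma test. Of these 2 had an unadjusted p under 0.05 by limma, and 1 passed an ordinary test without moderation. Both group means were under 3.6 for 20 of the 22, where RMA values compress differences, so a change could be missed. On the log2 scale Trac fell by 0.61 among 8 T cell markers (limma adjusted p = 0.00324) and Prf1 fell by 0.49 among 5 NK cell and ILC1 markers (adjusted p = 0.0154, but 0.0655 without control replicate 2 and 0.0569 without control replicate 3). Trac was the only call of its list (12.5%) and Prf1 of its list (20.0%), against 9.75% of all rows. The median change of the T cell list was 0.05, with 3 of 8 markers negative. That of the NK list was -0.15, with 3 of 5 negative. The T cell list averaged 3.75 to 3.86 per control array and 3.64 to 3.73 per knockout array, and the NK list 3.86 to 4.18 and 3.75 to 4.01. The part of these markers in the results below was not tested. In such bulk samples fewer cells that express a gene and less RNA per cell cannot be told apart.

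The promoters of these genes were searched for the sequence to which NF-κB binds. RefSeq promoter windows (build GRCm38.p6) were found for 9 of the 10 genes, 12 windows in all, and Nfkbiz had none. The 250 bases before each start were searched on both strands for the κB consensus motif. At least 1 match was present for 6 of the 9 genes, namely Nfkbia, Nfkbid, Nfkbie, Tnfaip3, Tnip1 and Ier3, and in 6 of the 12 windows, against 7.25% of all 32851 windows of this length. A match is a description of letters and not a measured binding site. The genes were listed as IκB proteins and regulators that NF-κB induces, so the comparison with all windows describes that choice and is not a test. The windows of Ier3, Tnfaip3 and Nfkbia, shown as examples of genes that fell, and of Tnip1, which went the other way, are given 5′ to 3′ on the strand of the gene. Capitals mark κB matches and, in Tnip1 alone, also a RUNX core.
Ier3, chr17:35821463-35821712, plus strand: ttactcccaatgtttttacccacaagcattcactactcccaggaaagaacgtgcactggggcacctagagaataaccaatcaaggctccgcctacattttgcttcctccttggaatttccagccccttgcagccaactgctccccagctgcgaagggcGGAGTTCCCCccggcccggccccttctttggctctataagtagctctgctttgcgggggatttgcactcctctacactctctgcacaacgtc
Tnfaip3, chr10:19015411-19015660, minus strand: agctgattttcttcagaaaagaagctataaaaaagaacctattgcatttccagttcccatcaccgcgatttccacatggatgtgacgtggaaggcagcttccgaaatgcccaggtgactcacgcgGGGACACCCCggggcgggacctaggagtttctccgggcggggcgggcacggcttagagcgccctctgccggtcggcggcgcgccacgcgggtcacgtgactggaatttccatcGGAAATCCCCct
Nfkbia, chr12:55492648-55492897, minus strand: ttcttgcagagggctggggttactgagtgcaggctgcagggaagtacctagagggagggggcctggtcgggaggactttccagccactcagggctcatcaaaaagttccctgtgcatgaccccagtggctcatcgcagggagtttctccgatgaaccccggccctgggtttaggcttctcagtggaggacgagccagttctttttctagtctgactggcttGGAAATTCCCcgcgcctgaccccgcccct
Tnip1, chr11:54962941-54963190, minus strand: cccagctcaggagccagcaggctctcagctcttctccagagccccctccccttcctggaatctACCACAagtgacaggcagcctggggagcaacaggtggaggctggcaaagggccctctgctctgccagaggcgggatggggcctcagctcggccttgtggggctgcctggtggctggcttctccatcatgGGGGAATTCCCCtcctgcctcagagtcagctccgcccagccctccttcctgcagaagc
The match in Ier3 lies 92 to 83 bases before the start, that in Nfkbia 29 to 20 bases before it, and Tnfaip3 has 2, at 125 to 116 and at 12 to 3 bases. The capital run GGGGAATTCCCC of Tnip1 holds 3 overlapping κB matches. The RUNX core TGTGGT, searched on both strands, was present in 2 of the 12 windows, the third window of Nfkbid and that of Tnip1 (ACCACA on the gene's strand, 187 to 182 bases before the start). Of all 32851 windows 4614 hold it, and no RUNX core overlapped a κB match in these 12 windows. The genes with a κB match include some that fell, 1 that rose and Nfkbie, which did not pass.

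Most of the 10 genes had lower values in the Cbfb knockout than in the control. In the knockout 6 of the 10 fell (Ier3, Tnfaip3, Nfkbiz, Nfkbia, Nfkbid and Nfkbib), Tnip1 rose, and Nfkbie, Bcl3 and Birc3 did not pass the test, a limma test with Benjamini-Hochberg adjustment over all rows and a threshold of 0.05. Over all 25206 rows 9.75% passed it, 4.24% lower and 5.51% higher in the knockout. All 10 genes lie above the median mean level. With the rows above that level fitted alone, 8 of the 10 passed, against 3517 of 12603 rows. The median change of the 10 genes was -0.58 on the log2 scale, and that of all rows was -0.0067. Groups did not overlap in 9 of the 10 genes, against 27.5% of all rows. The count of 7 changed genes became 4 without control replicate 2 and 5 without any other single array. The count over all rows, 2457, was 1307 and 1565 when control replicate 2 or 3 was left out, and 1478 and 1517 when knockout replicate 2 or 3 was.

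**Figure D1:**
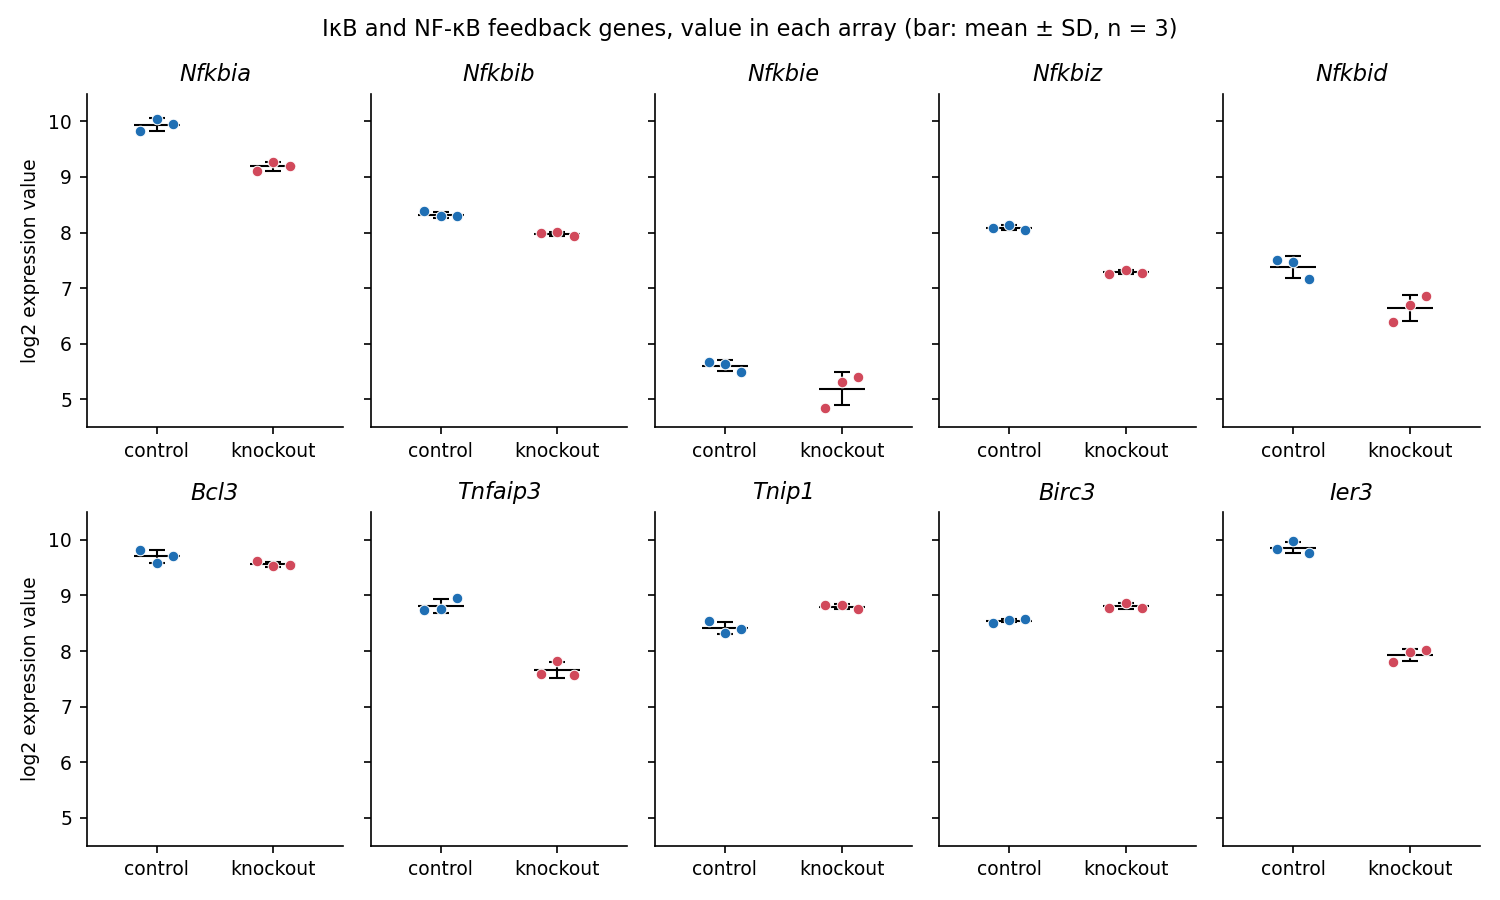
The log2 expression value of each of the 10 genes is plotted for every array, with control arrays in blue, knockout arrays in red and bars for the mean ± SD of 3 arrays. The red points lie below the blue ones in 7 genes and above them in Tnip1 and Birc3, and the groups overlap in Bcl3; heights are not comparable between genes.

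Among the classical inhibitors, Nfkbia encodes IκBα, the best known NF-κB inhibitor, which is rapidly destroyed and remade during signalling. Its values were 9.82, 10.05 and 9.95 in the control group, against 9.11, 9.26 and 9.20 in the knockout group. Every knockout array was below every control array. The mean fell from 9.94 ± 0.12 to 9.19 ± 0.075, so that 59.5% of the control signal remained on a linear scale (95% interval 51.3% to 69.0%; limma adjusted p = 0.00239). Nfkbia passed the test in all 14 alternatives tried (adjusted p 2.2e-05 to 0.029).

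Nfkbib encodes IκBβ, a classical inhibitor that turns over more slowly. It read 8.38, 8.29 and 8.29 in the control and 7.99, 8.01 and 7.93 in the knockout, again without overlap. It fell by 0.34 on the log2 scale (SE 0.079, limma adjusted p = 0.0312), to 78.8% of the control signal. This was a smaller change than that of Nfkbia, although the intervals of the 2 changes nearly meet (-0.96 to -0.54 and -0.53 to -0.16). The call for Nfkbib rests on all 6 arrays, since it missed the threshold when any 1 was left out (adjusted p 0.0801, 0.0888 and 0.0797 without control replicates 1, 2 and 3, and 0.0742, 0.0786 and 0.098 without knockout replicates 1, 2 and 3).

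Nfkbie encodes IκBε, which inhibits dimers that hold c-Rel or RelA. Its control arrays read 5.68, 5.64 and 5.50 and its knockout arrays 4.85, 5.32 and 5.40. The groups did not overlap, but knockout replicate 1 stood apart from the other two, and without it the difference was -0.25. Over all arrays the difference was -0.42 (95% interval -0.75 to -0.079; limma adjusted p = 0.129), and it passed in none of the 14 alternatives (adjusted p 0.0611 to 0.312; its unadjusted p was 0.0215).

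Of the atypical IκB genes, Nfkbiz encodes IκBζ, a nuclear protein that IL-1 family signals induce and that helps NF-κB activate a subset of its targets. Its values of 8.08, 8.14 and 8.05 in the control and 7.25, 7.32 and 7.28 in the knockout varied little within either group. It fell by 0.81 on the log2 scale (SE 0.078, limma adjusted p = 0.00079), to 57.2% of the control signal (95% interval 50.5% to 64.7%). Leaving out 1 array moved this change only between -0.83 and -0.78.

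Nfkbid encodes IκBNS, a nuclear IκB protein of lymphocytes. It read 7.51, 7.47 and 7.16 in the control and 6.39, 6.70 and 6.85 in the knockout. The third replicate of each group came closest to the other group, with no overlap. The fall of 0.73 on the log2 scale (limma adjusted p = 0.0165) was close in size to that of Nfkbia, but its interval was wider (-1.06 to -0.40). It missed the threshold without control replicate 1 (adjusted p = 0.0628) or control replicate 2 (adjusted p = 0.0661).

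Bcl3 encodes a nuclear IκB protein that binds homodimers of p50 and p52. Its control arrays read 9.82, 9.58 and 9.71 and its knockout arrays 9.61, 9.52 and 9.55. It was the 1 gene of the 10 in which the groups overlapped. The difference was -0.14 (95% interval -0.35 to 0.065; limma adjusted p = 0.416), so that a fall of up to 0.35 and a slight rise both lie within its interval.

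**Figure D2:**
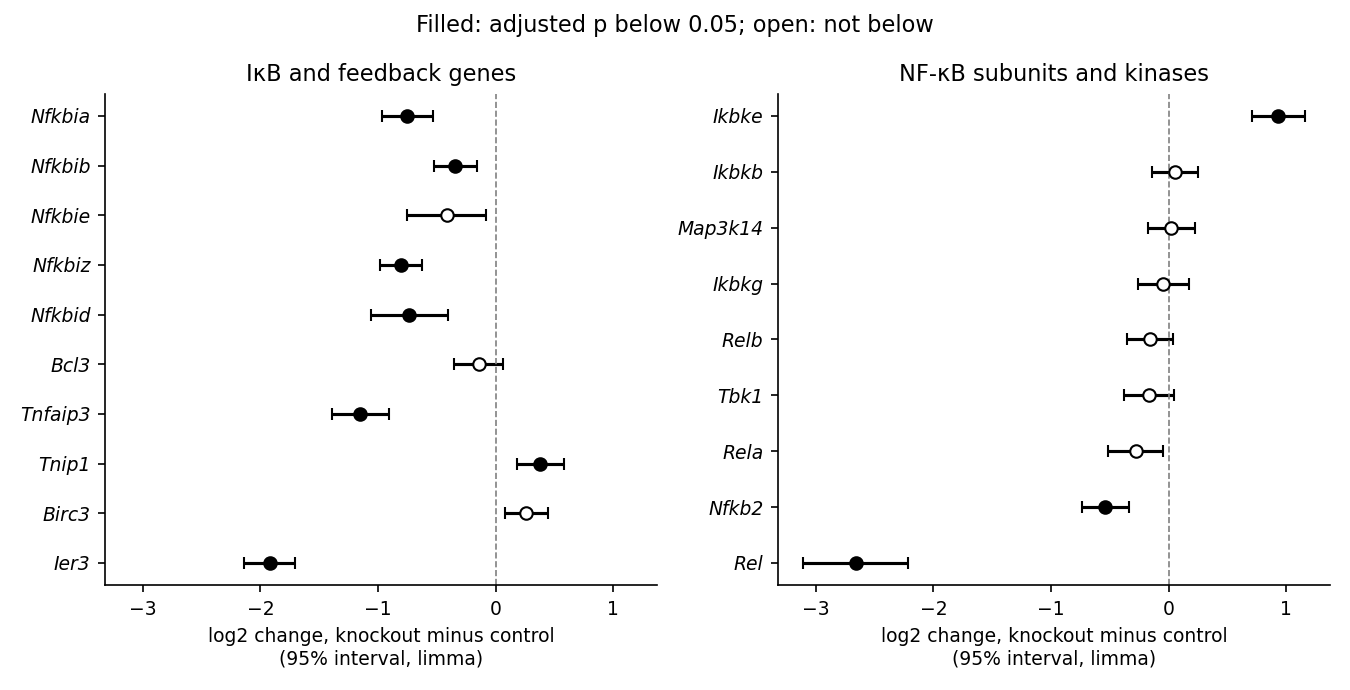
The change of each gene is given as knockout minus control on the log2 scale, with its 95% interval, for the 10 genes on the left and the measured NF-κB subunits and kinases on the right; filled circles passed the limma test. Ier3 at -1.92 and Tnfaip3 at -1.15 lead the falls on the left, and Rel at -2.66 on the right.

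The genes of the ubiquitin-editing enzyme A20 and of its adaptor ABIN1, which work as a pair, went in opposite directions. The call for the ABIN1 gene held in 7 of 14 alternatives. Tnfaip3 encodes A20, an enzyme that removes and adds ubiquitin on signalling proteins upstream of IKK. It read 8.73, 8.75 and 8.95 in the control and 7.59, 7.82 and 7.57 in the knockout. Its mean fell 2.22-fold, from 8.81 ± 0.12 to 7.66 ± 0.14 (limma adjusted p = 0.000616), and it passed in all 14 alternatives with changes from -1.23 to -1.08.

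Tnip1 encodes ABIN1, a ubiquitin-binding adaptor that recruits A20. Its control arrays read 8.54, 8.33 and 8.39 and its knockout arrays 8.83, 8.82 and 8.75. All knockout arrays were higher, and the gene rose 1.30-fold, by 0.38 on the log2 scale (95% interval 0.18 to 0.58; limma adjusted p = 0.0321). The rise stayed past the threshold without control replicate 1 (adjusted p = 0.0314). It missed it without control replicate 2 (adjusted p = 0.119) or 3 (adjusted p = 0.102), and without knockout replicate 1 (adjusted p = 0.0886), 2 (adjusted p = 0.0994) or 3 (adjusted p = 0.068). The other genes of the ABIN family, looked at together after their values were seen, went down. Tnip3 fell by 1.40 on the log2 scale from 4.67 ± 0.31 to 3.27 ± 0.21 (limma adjusted p = 0.00205), a level at which differences can be understated. Tnip2 read 6.83, 7.15 and 7.12 in the control and 6.57, 6.51 and 6.34 in the knockout, and it fell by 0.56 on the log2 scale (limma adjusted p = 0.0194). The Tnip2 call was lost without control replicate 2 (adjusted p = 0.0769) or 3 (adjusted p = 0.071) and without knockout replicate 2 (adjusted p = 0.055) or 3 (adjusted p = 0.0659). The 95% interval of Tnip1 lay above 0 and those of Tnip2 (-0.82 to -0.30) and Tnip3 (-1.79 to -1.02) below it; a test of the difference between the 3 genes was not run.

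Birc3 encodes cIAP2, a ubiquitin ligase that acts with TRAF proteins at TNF family receptors and restrains cell death. It read 8.51, 8.56 and 8.57 in the control and 8.77, 8.87 and 8.78 in the knockout. Every knockout array was above every control array, by a mean of 0.26 (95% interval 0.079 to 0.44), yet the gene did not pass (limma adjusted p = 0.0829). It passed in 4 of the 14 alternatives, among them a repeat of quantile normalisation (change 0.31, adjusted p = 0.0422). In that setting 6 of the 10 genes were lower and 2 higher.

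Ier3 encodes IEX-1, a small protein induced early after stress and growth signals that modulates cell survival and ERK signalling. Its values were 9.83, 9.97 and 9.77 in the control and 7.81, 7.98 and 8.01 in the knockout, the widest gap of the 10 genes. The mean fell 3.79-fold, from 9.86 ± 0.10 to 7.93 ± 0.11 (limma adjusted p = 7.06e-05), and 26.4% of the control signal remained (95% interval 22.6% to 30.7%). It had the 16th lowest change of all 25206 rows, and Tnfaip3 had the 94th lowest. The interval of Ier3 (-2.14 to -1.70) did not meet that of Tnfaip3 (-1.39 to -0.91). The intervals of Tnfaip3, Nfkbiz, Nfkbia and Nfkbid overlapped one another, narrowly for Tnfaip3 and Nfkbia, and differences among these 4 changes were not tested.

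**Figure D3:**
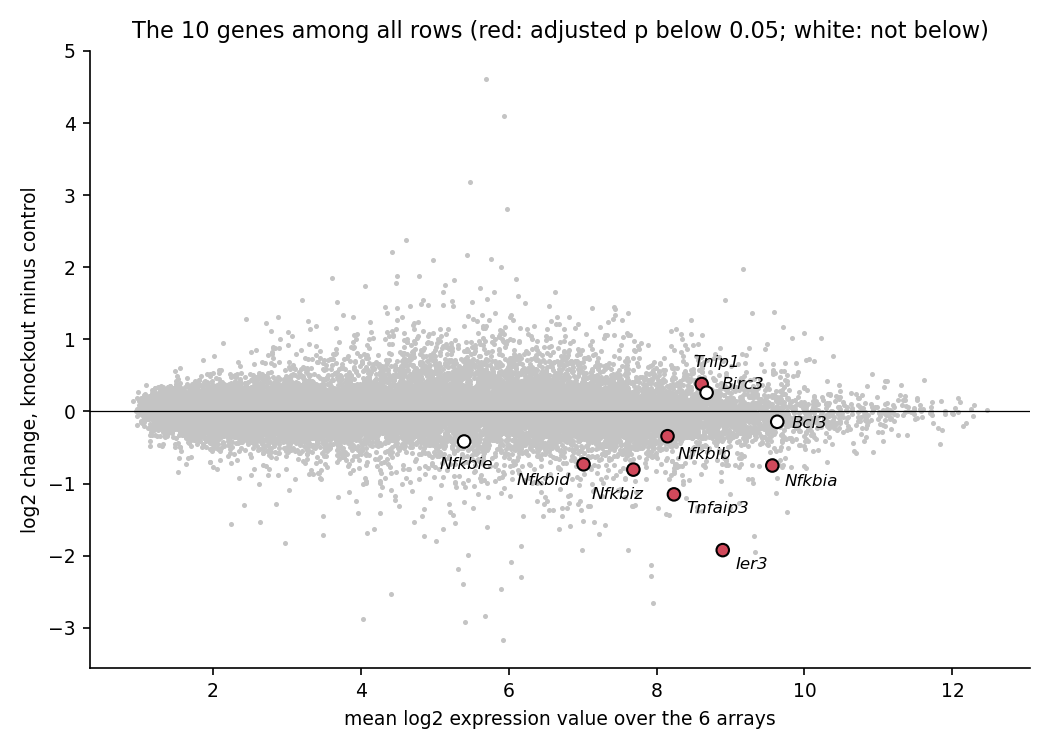
Each grey point is 1 of the 25206 rows, with its mean log2 expression value over the 6 arrays on the horizontal axis and its log2 change, knockout minus control, on the vertical axis. The 10 genes are named, red where the adjusted p was below 0.05 and white where it was not; Ier3 at -1.92 lies near the lower edge of the cloud.

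How far the calls depend on single arrays and on the fit divided the 10 genes. Ier3, Tnfaip3, Nfkbiz and Nfkbia passed in each of the 14 alternatives. Nfkbid passed in 10 of them, Nfkbib and Tnip1 in 7 each and Birc3 in 4, and Nfkbie and Bcl3 passed in none. No gene of the 10 changed its direction in any alternative.

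**Figure D4:**
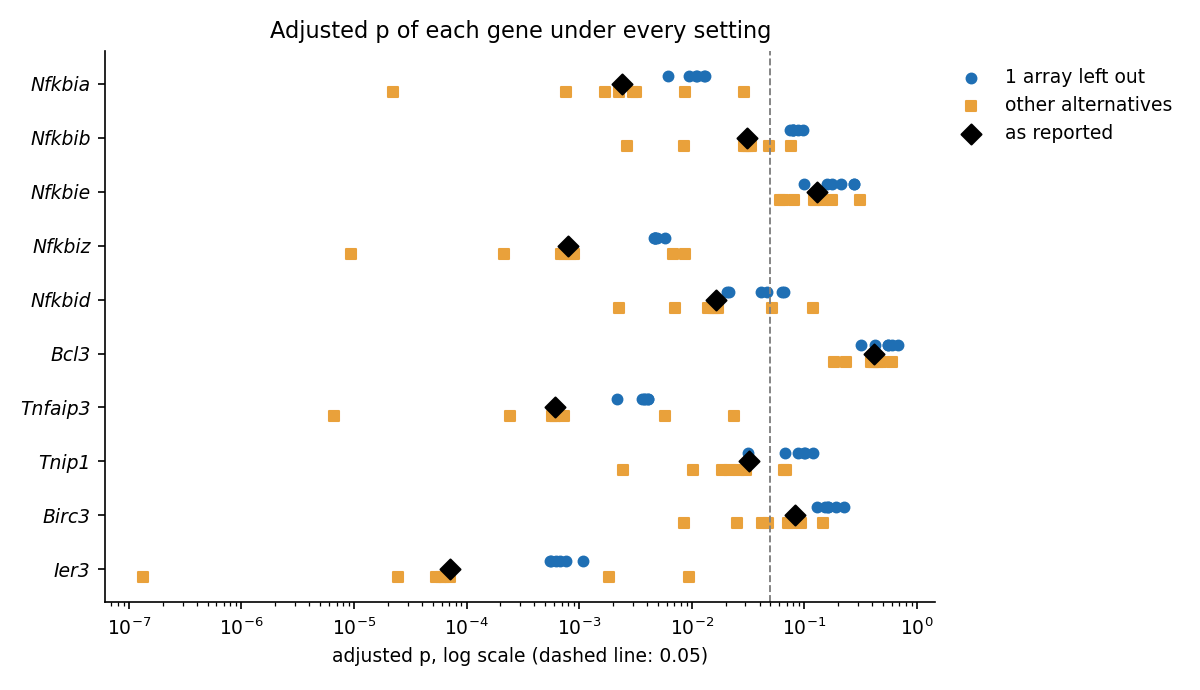
The adjusted p of each gene is plotted on a log scale for the reported fit (black diamonds), the 6 fits with 1 array left out (blue circles) and the 8 other alternatives (orange squares), with a dashed line at 0.05. All points of Ier3, Tnfaip3, Nfkbiz and Nfkbia lie left of the line, and those of Nfkbie and Bcl3 lie right of it.

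The genes of the NF-κB subunits, which the IκB proteins bind, and of the kinases upstream were set beside these values. Of 9 measured subunits and kinases of the NF-κB system, Rel and Nfkb2 fell, Ikbke rose and 6 did not pass, with a median change of -0.16. Those past the test were 33.3% of the list, against 9.75% of all rows. With rows above the median mean level fitted alone, 3 of 9 passed, against 3517 of 12603 rows. Rel encodes c-Rel, an NF-κB subunit prominent in lymphocytes, and fell 6.32-fold (control arrays 9.49, 9.45 and 8.89, knockout arrays 6.33, 6.91 and 6.61; limma adjusted p = 0.000245). Nfkb2, which encodes the precursor of p52, fell by 0.54 on the log2 scale (adjusted p = 0.00738), and Ikbke, which encodes an IKK-related kinase, rose by 0.93 (adjusted p = 0.00113). Rela, which encodes the main activating subunit, read 9.81, 9.54 and 9.55 in the control and 9.28, 9.36 and 9.42 in the knockout (difference -0.28, adjusted p = 0.137; it passed in 1 of 14 alternatives).

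To set each regulator against a protein it binds or works with, the difference of the 2 genes was taken within each array for the 8 of 11 listed pairs in which both genes had a row. The groups did not overlap in 7 of the 8 pairs. Among single rows 27.5% did not overlap, and the share over other pairs of rows was not computed. A gene that separates the groups by itself can also separate a difference that it enters. An exact two-sided permutation test of 3 arrays against 3 cannot go below p = 0.1, the value of these 7 pairs (0.114 after adjustment over the 8), so none could reach 0.05. Relative to the control mean, Rel minus Nfkbia stood at -2.12, -1.69 and -1.93 in the 3 knockout arrays and between -0.40 and 0.33 in the control arrays. Rel thus fell by 1.91 more than its inhibitor gene Nfkbia, and by 2.24 more than Nfkbie, on the log2 scale. Rela minus Nfkbia went the other way, at 0.48, 0.41 and 0.53 in the knockout arrays against -0.20 to 0.30 in the control arrays. The pair of Rela and Nfkbib differed by 0.063 between groups, with overlap (exact permutation p = 0.5). Tnfaip3 minus Tnip1 was lower by a mean of 1.53 in the knockout (-1.63, -1.39 and -1.57, with control arrays from -0.20 to 0.17).

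**Figure D5:**
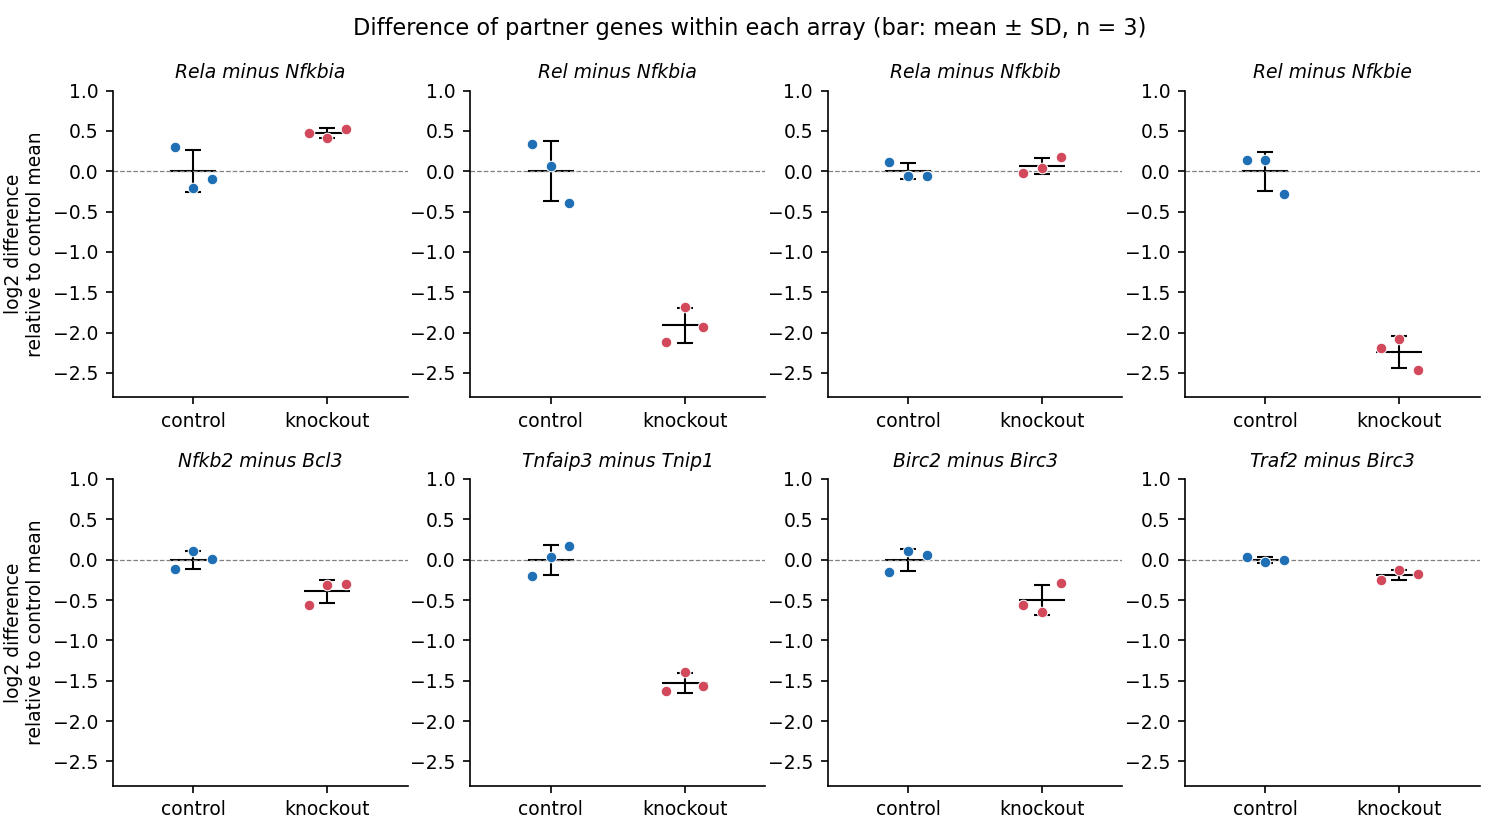
The difference of 2 partner genes within each array is plotted relative to its control mean, on the log2 scale, with control arrays in blue, knockout arrays in red and bars for the mean ± SD of 3 arrays. Knockout points lie far below the control points where Rel is the first gene and for Tnfaip3 minus Tnip1, and above them for Rela minus Nfkbia.

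In the remaining pairs, Nfkb2 minus Bcl3 changed by -0.39, Birc2 minus Birc3 by -0.50 and Traf2 minus Birc3 by -0.19. Birc2, which encodes cIAP1 and is a close relative of Birc3, read 6.41 ± 0.17 and 6.17 ± 0.16 and did not pass (limma adjusted p = 0.291). Traf2, which encodes the adaptor that recruits both, differed by 0.073 (adjusted p = 0.707). Of 13 measured IAP, TRAF and caspase partners, Traf1 and Diablo fell and 11 did not pass, with a median of -0.040. Those past the test were 15.4% of the list, against 9.75% of all rows. With rows above the median mean level fitted alone, 2 of 12 passed, against 3517 of 12603 rows, so no excess was seen there. Traf1 encodes an NF-κB-induced TRAF protein and fell by 0.74 on the log2 scale (adjusted p = 0.00353). Diablo, whose mitochondrial product antagonises IAP proteins, fell by 0.37 (adjusted p = 0.0306), and its call held without knockout replicate 2 (adjusted p = 0.0429) but was lost without any 1 of the other 5 arrays (adjusted p 0.0628 to 0.102). Xiap differed by 0.26 (adjusted p = 0.211) and Fadd by 0.27 (adjusted p = 0.143). The count of 2 was 1 without each array except knockout replicate 2.

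Other brakes on the pathway changed in both directions, and 35.0% of those measured passed, against 9.75% of all rows. With rows above the median mean level fitted alone, 12 of 20 passed, against 3517 of 12603 rows. Of 20 measured, 4 fell (Tnip3, Irak3, Zc3h12a and Tnip2), 3 rose (Sigirr, Pdlim2 and Socs1) and 13 did not pass, with a median of -0.0050. Irak3, which encodes a kinase-like inhibitor of IL-1 family receptor signalling, fell by 0.77 on the log2 scale (limma adjusted p = 0.00447). Zc3h12a, which encodes the RNase Regnase-1 that degrades cytokine messenger RNA, fell by 0.75 (adjusted p = 0.00447). Sigirr, which encodes an inhibitory IL-1 family receptor, rose by 0.58 (adjusted p = 0.00578). Pdlim2 (0.46) and Socs1 (0.48), named after their values were seen, also rose. Pdlim2 lost its call without control replicate 2 or 3 or knockout replicate 2 (adjusted p 0.0522 to 0.0554), and Socs1 without control replicate 2 or 3 or knockout replicate 1 or 2 (adjusted p 0.0618 to 0.0767). The count of 7 was 4 without control replicate 2, control replicate 3 or knockout replicate 2.

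Upstream, from the IL-33 receptor to IKK, most measured genes did not pass, but 25.0% did, against 9.75% of all rows. Among rows above the median mean level, fitted alone, 3 of 14 passed, against 3517 of 12603 rows, so no excess was seen there. Of 16, Map3k8 and Tab3 fell, Map3k3 and Ube2v1 rose and 12 did not pass, with a median of 0.037, and the receptor gene Il1rl1 had no named row and was not analysed here. Map3k8 encodes TPL2, a kinase that p105 binds and that leads to ERK, and it fell by 0.66 on the log2 scale (limma adjusted p = 0.0023). Tab3, an adaptor of the TAK1 kinase, fell by 0.38 (adjusted p = 0.0417), and the kinase gene Map3k3 rose by 0.43 (adjusted p = 0.0194). Ube2v1, a subunit of a ubiquitin-conjugating enzyme, went from 2.45 ± 0.20 to 3.33 ± 0.33 (adjusted p = 0.0163), both under 3.6, so its size is approximate. The count of 4 was 1 without control replicate 2 and 2 without control replicate 3, knockout replicate 1 or knockout replicate 3. Tab3 kept its call without control replicate 1 (adjusted p = 0.0348) and missed the threshold without any 1 of the other 5 arrays (adjusted p 0.0789 to 0.135). Map3k3 missed it without control replicate 2 or 3 or knockout replicate 1 or 3 (adjusted p 0.0618 to 0.0738), and Ube2v1 without control replicate 1 (adjusted p = 0.0647) or 2 (adjusted p = 0.0648).

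Targets of NF-κB outside the feedback group were mostly not past the test, but 22.9% of them passed, against 9.75% of all rows. With rows above the median mean level fitted alone, 10 of 23 passed, against 3517 of 12603 rows. Of 35 measured, 6 fell (Il6, Nlrp3, Gadd45b, Junb, Cxcl2 and Csf2), 2 rose (Ccl5 and Lcn2) and 27 did not pass, with a median of -0.080. Il6, a cytokine gene, fell by 3.17 on the log2 scale (limma adjusted p = 9.21e-05), and Nlrp3, an inflammasome sensor gene, by a change of -2.46. Gadd45b, a stress-induced survival gene, fell by 1.43 (adjusted p = 0.000142). Lcn2, an iron-sequestering protein gene, was singled out after its value was seen. It read 4.56, 4.84 and 4.33 in the control and 5.50, 5.73 and 5.45 in the knockout. This was a 1.98-fold rise (limma adjusted p = 0.00457). The chemokine gene Ccl5 rose by 0.81 (adjusted p = 0.00205) from 3.26 ± 0.090, a low value. Of the 35 genes 11 had both group means under 3.6, where RMA values compress differences. Cxcl2 missed the threshold without control replicate 2 or 3 or knockout replicate 1 or 3 (adjusted p 0.0515 to 0.066), and Csf2 without control replicate 1 or 2 or knockout replicate 1 or 2 (adjusted p 0.0604 to 0.0771).

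For each of the 7 genes that passed, the 3 named rows with the most similar profile were found by the root mean square difference of values centred on the control mean over the 6 arrays. This likeness is a description, because profiles of changed genes are dominated by the group difference. Ier3 was closest to P2ry2, a receptor for extracellular nucleotides (0.082 on the log2 scale), then Dgat1, an enzyme of triglyceride synthesis (0.17), and Il10 (0.18). Tnfaip3 was closest to the predicted gene Gm2046 (0.093), Kitl, which encodes stem cell factor (0.12), and B3galt2 (0.12). Nfkbia was closest to Lyst (0.033), the lysosomal trafficking gene, to Traf1 (0.038) and to Prss12 (0.043). Nfkbiz was closest to Myo16 (0.053), Lyst (0.054) and Peli1 (0.055), a ubiquitin ligase gene. Nfkbid was closest to Ly6g5b (0.085), the AP-1 gene Junb (0.090) and the T cell receptor gamma segment Trgj4 (0.093). Nfkbib was closest to Golga7 (0.016), Utp23 (0.021) and Lsg1 (0.025), and Tnip1 to Plaur (0.029), the integrin gene Itgal (0.030) and Zfp746 (0.030).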

How the data were processed

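The authors' deposited table gives log2 expression values, 1 row per Entrez gene, and the submitters' processing notes list RMA, and limma 3.14.4, with no role or order. The log2 scale was read from the values (0.66 to 12.51). RMA equalises the distributions of the arrays, so a shift common to most genes is removed, and it compresses differences near background. Array medians were 3.57 to 3.63, and the number of arrays limits the precision. Of 25206 rows 23185 had 1 gene symbol and 2021 none, and all 23185 matched RefSeq genes of GRCm38.p6. Protein sequences were not used here.

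Values were used as deposited. Groups were compared with limma 3.58.1 under R 4.3.3 (1 coefficient per group, moderated, two-sided, Benjamini-Hochberg over all rows, threshold 0.05). Pairs were tested with scipy 1.17.1. Named were the 10 genes, Cbfb, all partner genes, the 4 genes of smallest adjusted p in each of 5 pathway lists and the 3 nearest profiles. Trac, Prf1, the ILC2 markers and the other called list genes (Tnip2, Pdlim2, Socs1, Cxcl2, Csf2 and Lcn2) were named after their values were seen. Members, lists and pairs were chosen with earlier results of these data known. The limma test was tested on simulated data for this comparison with 25206 rows. Log2 changes of 0.5, 1 and 2 were recovered in 23.9% of 67, 91.0% of 67 and 98.5% of 66 rows, and 7 of 149 calls were false. Only these rows were changed in the simulation, whereas 2457 rows passed in the data. The adjustment depends on the share of changed rows, so the recovery of small changes need not hold for these data. The alternatives were a replicate block, each array left out, repeated quantile normalisation, centring, a level filter, array weights, a robust prior with trend, no moderation and named rows alone.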

Additional observations from a re-analysis of the deposited data

How the results depend on the processing

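Deviations of same-numbered arrays correlated at 0.025, 0.0067 and 0.054, and those of arrays with different numbers at -0.065 to 0.044. With 3 arrays per group these values cannot decide whether the replicate numbers pair the samples. With the replicate number as a block 4 of the 10 genes passed in place of 7 (Nfkbib, Nfkbid and Tnip1 missed the threshold), the IAP, TRAF and caspase list had 1 call in place of 2, and 1745 rows passed in all. Without 1 array in turn the 10 genes gave 4 to 5 calls, all rows 1307 to 1837, the list from the IL-33 receptor to IKK 1 to 3, the other brakes 4 to 7, the IAP, TRAF and caspase list 1 to 2, the target list 6 to 8 and the subunits and kinases 3 in each fit. The ordinary test without moderation gave 1254 rows, 1 call from the IL-33 receptor to IKK, 4 among the other brakes, 1 in the IAP list and 5 among targets. The other brakes had 12 calls among rows above the median level and 12 with a trended and robust prior. The cause of these shifts was not tested. Every other count over the 10 genes, all rows and the lists stayed within 1.5 times the reported one. This compares counts and not shares. The level filter gave 3517 calls among 12603 rows, against 2457 among 25206, so a larger share of rows passed. No gene whose change was recomputed reversed its direction in any alternative, and Ube2v1, below the median level, has no value under the level filter. Traf2 minus Birc3 moved from -0.19 to -0.25 after repeated quantile normalisation. Signal over background is unknown, as the values hold no detection calls.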
